A study of Mus musculus with 12 samples.

Results

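The genes described here are 10 markers of the cells that wrap or surround blood vessels, taken from the lens transcriptome of *Trpm3*-mutant mice: the pericyte markers *Rgs5*, *Pdgfrb* and *Cspg4*, the smooth muscle markers *Acta2*, *Tagln* and *Myh11*, the muscle intermediate filament gene *Des*, and the fibroblast and mesenchyme markers *Dcn*, *Pdgfra* and *Meox2*. They were chosen by name from 55487 gene identifiers in the count table, and all 10 were present there. RNA was measured in 12 libraries of whole lenses from mice at an age of 7 days, 3 libraries for each of 4 genotypes, on a shared B6J (C57BL6/J) background. Mice named *Trpm3*-I/M carry the p.I65M substitution on one allele of *Trpm3*, a cation channel gene, and *Trpm3*-M/M mice on both; these were made with CRISPR/Cas9. *Trpm3*-KO mice carry an allele targeted by homologous recombination and were re-derived from frozen embryos, and wild-type (WT) mice carry neither change. Lenses of both sexes, 4 of each, were pooled for each library, so that the spread between libraries is between pools and not between animals.

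Mural cells are the contractile and supporting cells of the vessel wall, with pericytes on capillaries and smooth muscle cells on arterioles and larger vessels. Endothelial cells recruit them with the growth factor PDGF-B, which binds the receptor encoded by *Pdgfrb*. The mature lens has no vessels, but the fetal lens is enclosed by a transient capillary net, the tunica vasculosa lentis, which regresses around birth and in the first weeks after it. Lens epithelial cells also use some of the same genes: they respond to PDGF-A through the receptor encoded by *Pdgfra*, and they can make smooth muscle actin.

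The 12 libraries held 56162182 to 82090262 counts on genes. The targeted gene *Trpm3* reached 268.5 ± 17.3 CPM (the count scaled to the library total and its TMM factor; SD, n = 3) in WT and 95.3 ± 5.02 CPM in *Trpm3*-KO libraries, with no overlap. The crystallin genes, which define the lens, took 49.4% to 63.9% of the counts. One library went against its label: *Trpm3*-I/M replicate 3 had 0.0721 CPM of *Xist*, the RNA of the inactive X chromosome, against 45.8 to 305 CPM in the other 11, and the highest sum of 4 Y-linked genes, 69.1 against 21.6 to 50.6 CPM. Values without it are given beside the fitted differences of I/M from WT for the 7 of these markers that were tested.

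In these libraries, 9 of the 10 genes were higher in every *Trpm3*-M/M library than in every WT library, and *Pdgfra* was lower in every one. Of 8984 genes tested, 65.2% had M/M and WT libraries that did not overlap. A gene was tested where its count scaled to the library total alone, without the TMM factor, reached 5 CPM in at least 3 libraries. The TMM factors ran from 0.828 in WT replicate 2 to 1.27 in M/M replicate 3. A gene under 5 CPM on the scale printed here could therefore be tested. A tested gene was called where the fold change was at least 2 and the adjusted p at most 0.05. Of the 10 genes, 7 were tested, and *Myh11*, *Des* and *Dcn* stayed under the filter. *Cspg4*, *Tagln* and *Meox2* passed only through the 3 M/M libraries, and *Rgs5* only through those and 2 I/M libraries, so these 4 genes had to differ between groups.

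In M/M against WT, *Rgs5*, *Cspg4*, *Acta2*, *Tagln* and *Meox2* were called higher, beside 6.42% of all tested genes, and *Pdgfra* was called lower, beside 2.53%. In I/M against WT, 3 of these genes, *Rgs5*, *Cspg4* and *Meox2*, were called higher, beside 2.58%, and 0 were called lower, beside 0.746%. In *Trpm3*-KO against WT, 0 were called in either direction, beside 0.234% called higher and 0.334% called lower. In M/M against I/M, the 5 genes called higher in M/M against WT were again called higher, beside 3.67%, and 0 were called lower, beside 1.02%. The comparisons with WT share the same 3 WT libraries and are therefore not independent of each other. In bulk RNA, fewer or more cells of a type cannot be told apart from less or more RNA per cell.

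**Figure D1:**
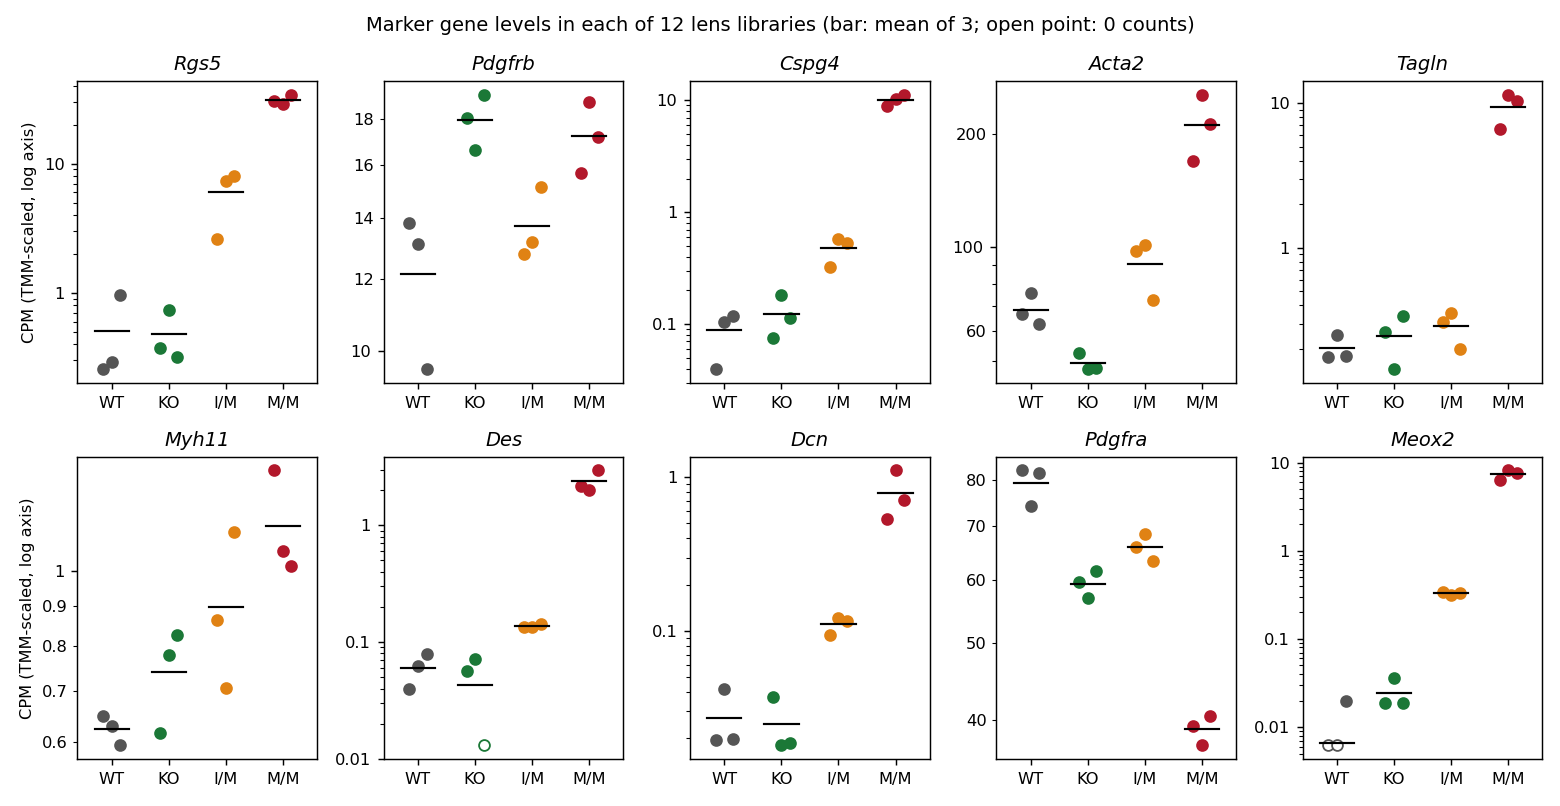
CPM of each of the 10 genes (log axis, its own scale in each panel) in the 3 libraries of WT, *Trpm3*-KO (KO), *Trpm3*-I/M (I/M) and *Trpm3*-M/M (M/M) lenses. Points are libraries, bars are means of 3 and open points, drawn at the foot of a panel, are libraries with 0 counts. In 9 panels the M/M points lie above all WT points, and in the *Pdgfra* panel they lie below.

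*Rgs5* encodes a regulator of G protein signaling and is among the most used pericyte markers. Its level was 0.256, 0.294 and 0.971 CPM in the WT libraries and 30.3, 29.1 and 34.1 CPM in the M/M libraries. It was 2.59, 7.36 and 8.001 CPM in the I/M libraries and 0.374, 0.742 and 0.319 CPM in the KO libraries. The M/M libraries stood close together and far above the rest, the I/M libraries lay between M/M and WT without touching either, and the KO and WT libraries overlapped. The log2 fold change was 5.93 in M/M against WT (standard error 0.44, adjusted p = 8.15e-08, edgeR quasi-likelihood test, Benjamini–Hochberg adjusted), a 60.8-fold difference. In I/M against WT it was 3.55 (standard error 0.49, adjusted p = 0.000114, same test). The size of both rests in part on WT replicate 3, the highest WT library for this gene: without it, and with the tested genes kept as they were, they became 6.81 and 4.43. I/M replicate 1 was the lowest of its group by a wide margin. Without that library, the I/M difference was 3.91, and without I/M replicate 3 it was 3.29.

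*Cspg4* encodes NG2, a surface proteoglycan of pericytes and of glial precursor cells. It was nearly silent in WT lenses, at 0.0393, 0.105 and 0.119 CPM (2, 5 and 6 counts), and reached 8.81, 10.3 and 11.2 CPM in M/M lenses. I/M libraries held 0.324, 0.571 and 0.533 CPM, and KO libraries held 0.0748, 0.181 and 0.113 CPM. All M/M libraries lay above all I/M libraries and these above all WT and KO libraries, which overlapped each other. The log2 fold change was 6.83 in M/M (standard error 0.26, adjusted p = 1.49e-10) and 2.43 in I/M against WT (standard error 0.40, adjusted p = 0.000433), both from the edgeR quasi-likelihood test, Benjamini–Hochberg adjusted. Leaving out I/M replicate 3 gave 2.35.

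*Pdgfrb*, the receptor through which mural cells respond to PDGF-B, did not follow *Rgs5* and *Cspg4*. It was already at 13.8, 13.1 and 9.53 CPM in WT lenses, and at 15.7, 18.8 and 17.2 CPM in M/M lenses. KO libraries, at 18.02, 16.6 and 19.1 CPM, overlapped the M/M libraries, and I/M libraries, at 12.8, 13.2 and 15.2 CPM, overlapped the WT libraries. M/M and KO libraries were thus the higher pair of groups for this gene. The log2 differences from WT were 0.50 in M/M (standard error 0.12, adjusted p = 0.00209) and 0.56 in KO (standard error 0.12, adjusted p = 0.0155), both under the 2-fold threshold in the edgeR quasi-likelihood test, Benjamini–Hochberg adjusted. The difference in I/M was 0.17 (95% interval −0.086 to 0.43), and 0.095 without I/M replicate 3.

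*Des* encodes desmin, an intermediate filament protein of muscle cells that pericytes also make. It had 2, 3 and 4 counts in the WT libraries and 173, 185 and 261 counts in the M/M libraries, which is 0.0393 to 0.0793 CPM against 2.01 to 2.95 CPM. I/M libraries had 10, 11 and 10 counts and KO libraries had 3, 4 and 0. The M/M libraries were far above all others, and the I/M libraries, with nearly equal counts, lay above all WT and KO libraries. In a fit that kept genes at a CPM of at least 1 (12638 genes), the log2 fold change in M/M against WT was 5.23 (standard error 0.35, adjusted p = 2.35e-08, edgeR quasi-likelihood test, Benjamini–Hochberg adjusted). In that fit I/M differed from WT by 1.16 (standard error 0.54, adjusted p = 0.13, same test) and did not pass. Exons of *Des* share 220 bases with *Gm15179* on the opposite strand, whose reads cannot be told apart from it.

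*Acta2*, which encodes the smooth muscle isoform of actin, was the one smooth muscle marker with a high level in WT lenses. It measured 66.6, 75.8 and 62.6 CPM in WT libraries and 169, 254 and 212 CPM in M/M libraries. I/M libraries held 97.6, 101.4 and 72.4 CPM, and KO libraries 52.6, 47.5 and 48.0 CPM. M/M libraries were above all others, I/M libraries overlapped WT through replicate 3, and all KO libraries lay below all WT libraries. The log2 fold change in M/M against WT was 1.63 (standard error 0.14, adjusted p = 4.36e-07, edgeR quasi-likelihood test, Benjamini–Hochberg adjusted). The I/M value of 0.41 had an adjusted p of 0.0431 but was under the 2-fold threshold, and it was 0.54 without I/M replicate 3. In KO the difference was −0.47 (standard error 0.14, adjusted p = 0.0919).

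*Tagln* encodes transgelin (SM22), an actin-binding protein that rises early as a cell takes on a smooth muscle character. Its level was 0.177, 0.252 and 0.178 CPM in WT libraries and 6.60, 11.4 and 10.3 CPM in M/M libraries. In I/M libraries it was 0.310, 0.352 and 0.202 CPM, and in KO libraries 0.262, 0.145 and 0.338 CPM. Only the M/M libraries stood apart, with the other 9 overlapping. The log2 fold change was 5.54 in M/M (standard error 0.29, adjusted p = 2.86e-09, edgeR quasi-likelihood test, Benjamini–Hochberg adjusted), whereas in I/M it was 0.53 with a 95% interval from −0.45 to 1.51, and 0.72 without I/M replicate 3. Part of *Tagln*, 1349 exonic bases, overlaps exons of *Pcsk7* and *Gm48529* on the opposite strand. Whether the counting used strand was not given in the sources used here, so reads of these genes cannot be told apart.

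*Myh11* encodes the heavy chain of smooth muscle myosin, the marker most restricted to differentiated smooth muscle. It held 33, 30 and 30 counts in WT libraries and 108, 98 and 90 counts in M/M libraries, or 0.595 to 0.649 CPM against 1.02 to 1.35 CPM. I/M libraries ranged from 0.705 to 1.12 CPM and KO libraries from 0.617 to 0.827 CPM. M/M libraries were above all WT libraries but overlapped I/M libraries. With a CPM of at least 1 as the filter, the M/M difference was 0.84 on the log2 scale (standard error 0.21, adjusted p = 0.00294, edgeR quasi-likelihood test, Benjamini–Hochberg adjusted), which is under the 2-fold threshold.

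*Dcn* encodes decorin, a small collagen-binding proteoglycan of fibroblasts. It had 1, 2 and 1 counts in the WT libraries, 2, 1 and 1 in the KO libraries, 7, 10 and 8 in the I/M libraries and 43, 102 and 63 in the M/M libraries. The M/M libraries lay above the I/M libraries and these above the other 6. Summed over 3 libraries and scaled to their sizes, the M/M to WT ratio was 29.7, with a 95% interval from 11.4 to 110 for counting error only. Even the M/M level, 0.785 ± 0.291 CPM (SD, n = 3), was low. Without any filter (32253 genes), *Dcn* was called higher in M/M (log2 fold change 4.77, adjusted p = 2.32e-19) and in I/M against WT (1.99, adjusted p = 0.0291) by the edgeR quasi-likelihood test, Benjamini–Hochberg adjusted. Adjusted p of this fit cannot be set beside those of the filtered fits. By the same test, *Des* in M/M against WT had 7e-54 without a filter, at 5.24 (standard error 0.33). With a CPM of at least 1 it had 2.35e-08, at 5.23 (standard error 0.35).

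*Pdgfra*, the receptor for PDGF-A in fibroblasts and in the lens epithelium, went the other way. It measured 82.2, 74.2 and 81.7 CPM in WT libraries and 39.3, 37.2 and 40.4 CPM in M/M libraries. I/M libraries held 65.8, 68.5 and 63.3 CPM, and KO libraries 59.6, 56.8 and 61.6 CPM. The groups did not overlap at all: WT was the highest, followed by I/M, KO and M/M. The log2 fold change in M/M was −1.03 (standard error 0.055, adjusted p = 3.21e-09, edgeR quasi-likelihood test, Benjamini–Hochberg adjusted), just past the 2-fold threshold. Under the same test, I/M differed from WT by −0.27 (adjusted p = 0.00199) and KO by −0.42 (adjusted p = 0.000395). Without I/M replicate 3 the I/M value was −0.24. The M/M call depends on scaling: with library size only, which moves the median of all tested genes by 0.50, the value was −0.52. Exons of *Pdgfra* share 652 bases with *Gm42802*, *Gm42803* and *Mir7025*, whose reads cannot be told apart from it.

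*Meox2* encodes a homeobox transcription factor of mesenchyme and of the vessel wall. Its reads were all but missing from WT libraries, with 0, 0 and 1 counts, and numbered 507, 749 and 682 in M/M libraries, or 6.34 to 8.12 CPM. I/M libraries held 25, 26 and 23 counts and KO libraries 1, 2 and 1. M/M libraries lay far above I/M libraries, and these far above the other 6. The ratio of summed counts, scaled to library size, was 1106 for M/M against WT (95% counting interval 198 to 43726) and 48.8 for I/M against WT (8.49 to 1953). The fitted log2 fold changes, 9.75 in M/M (adjusted p = 2.07e-11) and 5.26 in I/M (adjusted p = 9.49e-06), came from the edgeR quasi-likelihood test, Benjamini–Hochberg adjusted. Their size rests on a single WT count: without WT replicate 3 no WT count is left, and the fits, which then depend on the prior count, gave 11.97 and 7.48. Without I/M replicate 3 the I/M value was 5.25.

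**Figure D2:**
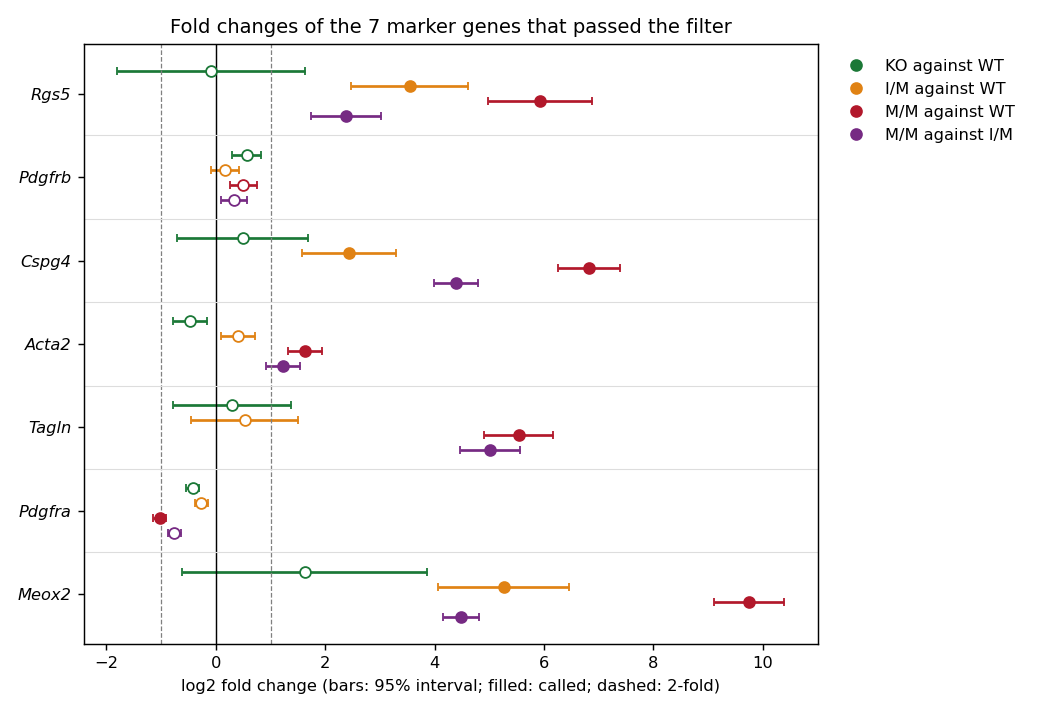
Log2 fold changes of the 7 genes that passed the filter in 4 comparisons, with 95% intervals from edgeR's quasi-likelihood fit. Filled points were called, and dashed lines mark a 2-fold change. In M/M against WT the values run from −1.03 for *Pdgfra* to 9.75 for *Meox2*, and all KO points are open.

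The heterozygous lenses did not stand at one fixed fraction of the homozygous level. The mean I/M level was 19.2% of the mean M/M level for *Rgs5* and 14.1% for *Dcn*. It was between 3.05% and 5.80% for *Tagln*, *Meox2*, *Cspg4* and *Des*, and 42.8% for *Acta2*. For *Pdgfrb* it was 79.5%, for *Myh11* 78.5% and for *Pdgfra*, which was lower in M/M, 169%. Without I/M replicate 3 these shares were 16.0% for *Rgs5*, 13.8% for *Dcn*, between 3.51% and 5.66% for the next 4 genes, and 47.0% for *Acta2*. They were then 75.3% for *Pdgfrb*, 68.6% for *Myh11* and 172% for *Pdgfra*. These percentages describe levels, not rises over WT. In WT, *Acta2* was already at 32.3% of M/M, *Pdgfrb* at 70.5%, *Myh11* at 54.7%, *Pdgfra* at 204% and *Tagln* at 2.14%. The direct comparison of M/M with I/M gave log2 fold changes of 5.01 for *Tagln* (standard error 0.26), 4.49 for *Meox2* (0.15), 4.40 for *Cspg4* (0.19), 2.38 for *Rgs5* (0.30) and 1.23 for *Acta2* (0.14), all called with adjusted p from 3.9e-10 to 2.35e-05 by the edgeR quasi-likelihood test, Benjamini–Hochberg adjusted. *Tagln*, *Meox2* and *Cspg4* had passed the filter through the M/M libraries alone, so a difference between M/M and I/M was a condition of their being tested. Leaving out I/M replicate 3 left the number of genes called at 5 in M/M against I/M and 3 in I/M against WT.

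Among genes, levels were compared per kilobase of annotated exon. *Acta2* was the highest of the 10 in every genotype, at 31.1 ± 3.08 CPM per kb in WT and 96.4 ± 19.2 in M/M (SD, n = 3). In WT it was followed by *Pdgfra* at 7.92 ± 0.446 and *Pdgfrb* at 2.22 ± 0.419 CPM per kb, with *Rgs5* at 0.112 ± 0.0886 and *Tagln* at 0.102 ± 0.0216 next. The last pair did not differ beyond their spread. In M/M lenses *Rgs5* was second at 6.85 ± 0.573 CPM per kb, then *Tagln* at 4.75 ± 1.27 and *Pdgfra* at 3.89 ± 0.163, which were within their spread of each other. *Pdgfrb* at 3.14 ± 0.284 and *Meox2* at 3.13 ± 0.395 CPM per kb also could not be ranked apart. *Myh11* moved from sixth in WT, at 0.0822 ± 0.00362 CPM per kb, to ninth in M/M, at 0.150 ± 0.0238. Its rank was not apart from those of *Rgs5* and *Tagln* in WT, nor from that of *Dcn* in M/M (0.134 ± 0.0499), beyond their spread.

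The KO libraries gave no call at the thresholds, either with edgeR or with DESeq2. At an unadjusted p under 0.05, 3 of the 7 tested genes differed in edgeR's fit: *Pdgfrb* upward, *Acta2* and *Pdgfra* downward. At an adjusted p of at most 0.05 and any fold, *Pdgfrb* and *Pdgfra* passed, 2 of 7, beside 4.36% of all tested genes in that comparison. By the same measure 7 of 7 passed in M/M against WT (62.7% of all genes), 5 of 7 in I/M against WT (32.6%) and 7 of 7 in M/M against I/M (51.3%). These shares cannot be read as an excess. Among the 7, *Rgs5*, *Cspg4*, *Tagln* and *Meox2* had passed the filter only through mutant libraries and had to differ between groups. Intervals were wide for the scarce genes: *Rgs5* in KO against WT was −0.084 with a 95% interval from −1.80 to 1.63 on the log2 scale, and *Tagln* was 0.29 with −0.79 to 1.37.

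Promoter windows were at hand for 6 of the 10 genes (RefSeq, GRCm38.p6): *Rgs5*, *Cspg4*, *Acta2*, *Des*, *Pdgfra* and *Meox2*. The 250 bases before each start were searched for sites of factors known from smooth muscle genes. The CArG box, the site of serum response factor, was read as CC, then 6 letters that are A or T, then GG, which is its own reverse complement. It was found in 0 of the 6 windows and in 1.47% of all 32851 windows. In the *Acta2* window only 33 of the 250 bases lie before the first annotated exon, and the rest lies inside the gene. Sequence farther upstream of *Acta2* was not searched. The MCAT element, CATTCC on either strand, was found in 1 of the 6, *Acta2*, and in 12.6% of all windows. These matches are descriptions of letters, and their absence from a window says nothing about the factor.

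The sequences shown are those of the 3 genes called higher in both mutant genotypes and of *Pdgfra*, which was called lower, each on the forward strand of GRCm38.p6 and ending at the start site, or for *Cspg4* at its first annotated exon. Capitals mark TATA where it begins 20 to 40 bases before the start on the gene's strand, a search added after the sequences were seen. Such a match was present in *Rgs5* (30 and 28 bases before the start, overlapping) and *Meox2* (27 bases), 2 of the 6 windows, and in 5.81% of all windows.
*Rgs5*, chr1:169655251-169655500: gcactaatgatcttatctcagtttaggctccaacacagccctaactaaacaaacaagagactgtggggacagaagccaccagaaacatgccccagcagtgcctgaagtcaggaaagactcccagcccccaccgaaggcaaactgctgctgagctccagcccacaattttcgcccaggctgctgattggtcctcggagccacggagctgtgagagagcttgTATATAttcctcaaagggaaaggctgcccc
*Meox2*, chr12:37108290-37108539: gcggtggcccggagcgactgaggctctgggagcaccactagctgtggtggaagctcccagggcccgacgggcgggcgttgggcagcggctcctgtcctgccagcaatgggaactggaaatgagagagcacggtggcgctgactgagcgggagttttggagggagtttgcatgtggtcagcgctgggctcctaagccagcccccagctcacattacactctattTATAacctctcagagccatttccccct
*Cspg4*, chr9:56864854-56865032: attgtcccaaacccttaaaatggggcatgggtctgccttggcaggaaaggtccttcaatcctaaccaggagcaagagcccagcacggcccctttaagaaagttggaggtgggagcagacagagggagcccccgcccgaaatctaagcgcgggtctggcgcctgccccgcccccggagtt
*Pdgfra*, chr5:75152001-75152250: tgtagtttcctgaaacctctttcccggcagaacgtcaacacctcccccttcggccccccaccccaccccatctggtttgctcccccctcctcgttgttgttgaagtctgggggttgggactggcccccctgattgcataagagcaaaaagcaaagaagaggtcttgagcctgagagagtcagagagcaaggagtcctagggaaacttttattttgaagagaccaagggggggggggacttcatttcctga
The MCAT match of *Acta2* lies 146 bases before the RefSeq start and inside the annotated gene. The 30 bases around it are given on the gene's strand, which is the reverse strand, with the match in capitals.
*Acta2*, chr19:34255502-34255531: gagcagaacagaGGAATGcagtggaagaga
The gene bodies lie, in GRCm38, on chromosome 1 from 169655501 to 169695813 for *Rgs5*, on chromosome 12 from 37108540 to 37179534 for *Meox2*, on chromosome 9 from 56865033 to 56899870 for *Cspg4*, on chromosome 5 from 75152292 to 75198215 for *Pdgfra* and on chromosome 19 from 34241090 to 34255590 for *Acta2*.

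For each called gene, the tested genes with the most similar pattern were found by the root mean square difference of log2 CPM, centered on WT, over the 12 libraries. Endothelial genes were the nearest to *Rgs5*: *Cldn5*, a tight junction gene, at 0.40, and *Ptprb*, an endothelial phosphatase gene, at 0.47, with *C130074G19Rik* between them at 0.45. The nearest to *Meox2* were *Tgfbi* at 0.48, *Apba2* at 0.64 and *Flt1*, a VEGF receptor gene, at 0.73. *Cspg4* was most like *Serpine2* (0.43), *Apcdd1* (0.48) and *Wdr72* (0.50). *Tagln* was most like *Myof* (0.46), *Car2* (0.56) and *Flnc*, a filamin gene of muscle (0.57). *Acta2* was most like *Dennd3* (0.19), *Glul* (0.22) and *Abca4* (0.22), and *Pdgfra* was most like *Slc15a2* (0.11), *Sp3os* (0.12) and *Lrrc49* (0.13). These distances are descriptions over libraries that share genotype, so genes with any large difference between genotypes can be close.

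The lists of further genes went through the same filter, so a gene that reached a CPM of 5 in the M/M libraries alone had to differ. This was so for 2 of the 6 mural genes tested, 1 of 19 smooth muscle genes, 6 of 15 fibroblast genes, 2 of 10 genes of PDGF ligands and processing, and 8 of 10 endothelial genes. Genes that passed through mutant libraries only, with no WT or KO library at a CPM of 5, had to differ between groups as well. With the M/M-only genes included, they numbered 4, 2, 9, 2 and 8 in the same order of lists. The counts of calls in these lists are therefore descriptions. Leaving out I/M replicate 3, an alternative chosen after seeing the data, changed none of the 5 lists' numbers of genes called higher or lower in I/M against WT.

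Of 22 further mural cell markers, 6 were tested. In M/M against WT, 4 were called higher and 2 lower. The largest rises were those of *Mcam* (CD146), at 2.85 (1.582 ± 0.246 to 11.4 ± 1.35 CPM, SD, n = 3), and *Heyl*, a Notch target, at 2.62 (0.843 ± 0.224 to 5.19 ± 0.142 CPM). The 2 that fell were *Rgs4*, another regulator of G protein signaling, by 2.54 on the log2 scale (28.8 ± 1.61 to 4.96 ± 1.46 CPM), and *Notch3*, the Notch receptor of mural cells, by 1.06 (21.4 ± 2.82 to 10.3 ± 0.988 CPM). With library size only as scaling, *Notch3* was at −0.56 and no longer called, and *Rgs4* at −2.03 was still called. In I/M against WT 2 were called higher and 1 lower, and in KO 0 were called. As a list, the 22 genes summed to 64.0 to 70.6 CPM in WT and 65.7 to 67.5 in KO libraries. The sums were 55.0 to 57.6 CPM in I/M, below all WT sums, and 70.1 to 75.2 in M/M, overlapping WT. With a CPM of at least 1 as the filter, 10 were called higher and 2 lower in M/M against WT. The shares of all 12638 genes called under that filter are not given here, so these counts cannot be read as an excess. Genes that passed it through the M/M libraries alone had to differ as well.

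The pericyte markers *Kcnj8*, *Abcc9*, *Higd1b* and *Vtn* of that list stayed under the filter. The potassium channel subunit gene *Kcnj8* had 3 counts in all WT libraries together and 109 in the M/M libraries, and *Abcc9*, which encodes its partner subunit, had 1.42 ± 0.106 CPM in WT and 2.78 ± 0.265 CPM in M/M (SD, n = 3). *Higd1b* had 0 counts in all WT and KO libraries, 16 in the I/M libraries and 55 in the M/M libraries. *Vtn*, which encodes vitronectin, had 2 counts in the WT libraries and 115 in the M/M libraries. Each of these genes was higher in every M/M library than in every WT library, at mean levels under 3 CPM.

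Of 30 further smooth muscle contractile and regulatory genes, 19 were tested, and in M/M against WT 5 were called higher. *Myl9*, a myosin light chain gene, rose by 1.99 on the log2 scale in M/M and by 1.584 in I/M against WT (9.51 ± 0.492, 28.5 ± 4.06 and 37.8 ± 5.61 CPM in WT, I/M and M/M; SD, n = 3). *Vcl*, which encodes vinculin, rose by 1.52, from 6.41 ± 0.689 to 18.4 ± 2.496 CPM. With library size only as scaling, 9 were called higher. The strict contractile marker *Cnn1* had 2 counts in the WT libraries and 33 in the M/M libraries, and *Myocd*, the co-activator of smooth muscle genes, had 14 and 155 counts.

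**Figure D3:**
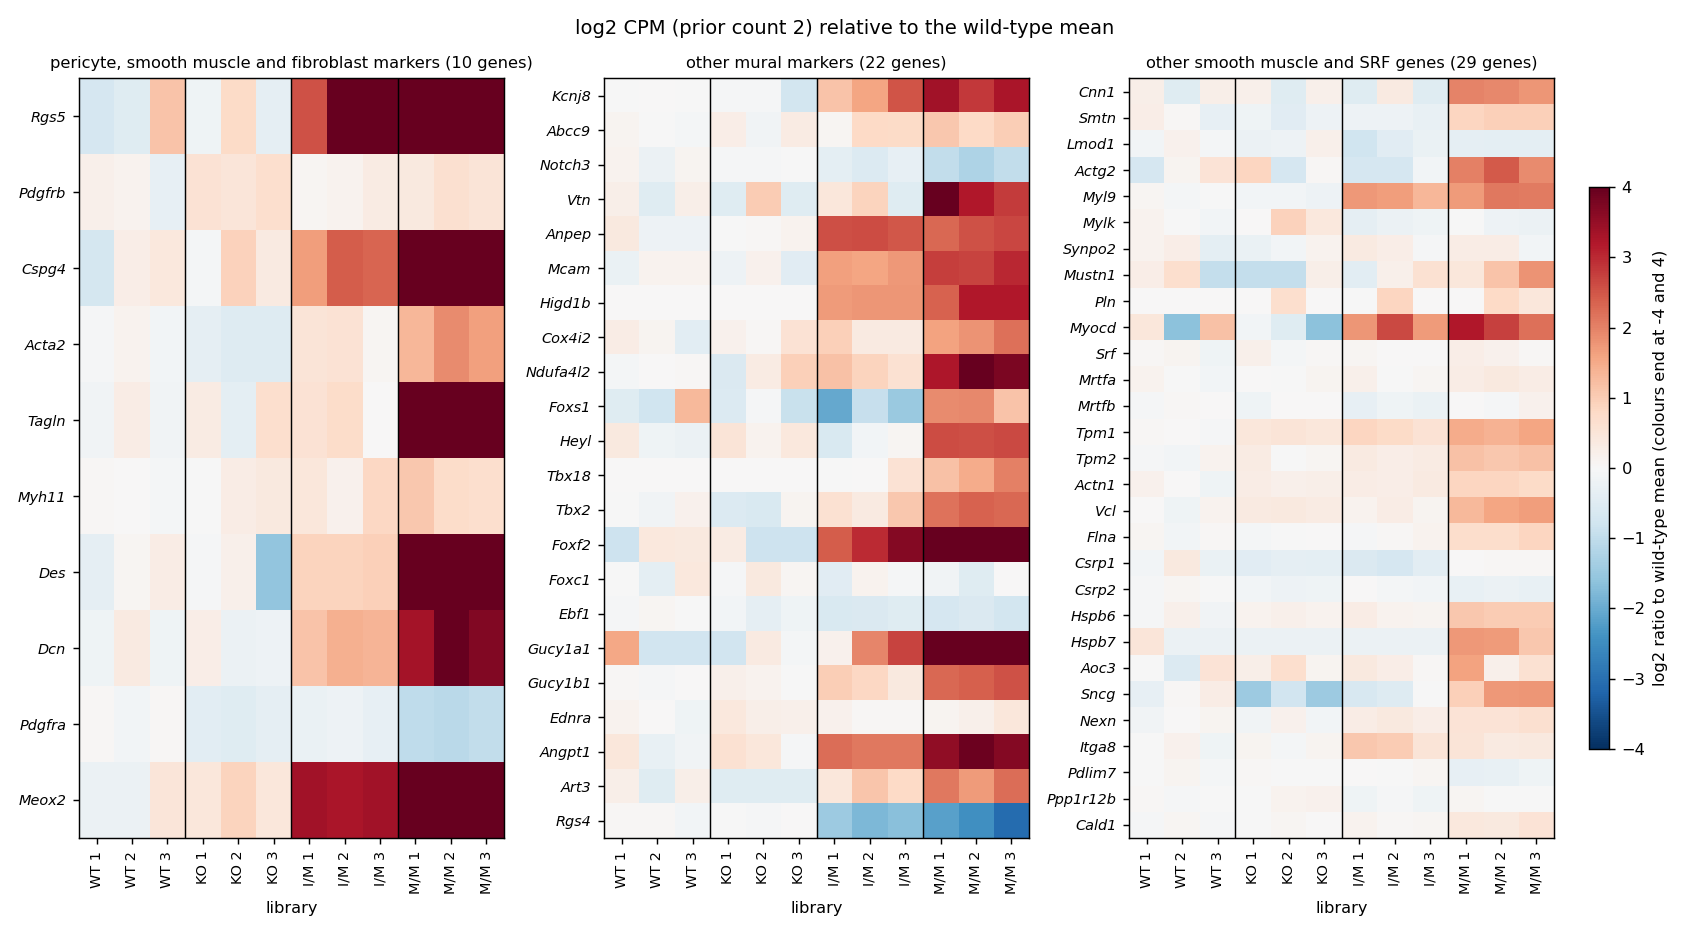
Log2 CPM (prior count of 2) of each gene relative to its WT mean in the 12 libraries, for the 10 markers for the 22 further mural genes and for 29 of the 30 further smooth muscle genes. Red is higher and blue lower than WT, colors end at a log2 ratio of 4 in either direction, and vertical lines part the genotypes. Most of the strong red lies in the M/M columns, while *Notch3*, *Rgs4* and *Pdgfra* are blue there.

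Of 30 further fibroblast genes, 15 were tested, and 10 were called higher and 0 lower in M/M against WT. *Postn*, which encodes periostin, rose by 8.82 on the log2 scale, from 0.141 ± 0.0157 to 64.4 ± 14.8 CPM (SD, n = 3), and by 4.24 in I/M against WT. *Col1a1*, the main collagen chain gene of fibroblasts, rose by 8.71, from 0.128 ± 0.00943 to 54.3 ± 23.3 CPM. Its I/M mean, 0.337 ± 0.0934 CPM, was 0.621% of the M/M mean, and I/M against WT was not called (log2 fold change 1.40, adjusted p = 0.29, edgeR quasi-likelihood test, Benjamini–Hochberg adjusted). *Lum*, which encodes lumican, had 0 counts in WT and KO, 1 in I/M and 5 in M/M libraries. In I/M against WT 5 genes of the list were called higher, and in KO 0.

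Of 12 genes for PDGF ligands and their processing and signaling, 10 were tested. In M/M against WT 2 were called higher and 0 lower. *Pdgfb*, the ligand gene that endothelial cells use to recruit mural cells, rose by 6.10 on the log2 scale in M/M and by 3.38 in I/M, from 0.0617 ± 0.0566 CPM in WT to 0.643 ± 0.139 in I/M and 4.26 ± 0.361 in M/M (SD, n = 3). *Plat*, a protease gene whose product activates a PDGF ligand, rose by 2.51 in M/M and fell by 1.04 in KO. *Pdgfa*, the ligand gene for the receptor of *Pdgfra*, was 0.89 higher in M/M (adjusted p = 1.12e-07, edgeR quasi-likelihood test, Benjamini–Hochberg adjusted) and stayed under the 2-fold threshold, at 9.07 ± 0.813 CPM in WT and 16.8 ± 0.892 CPM in M/M libraries.

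Markers of some other cell types moved with these genes. Vascular endothelium, as a list of 19 genes, summed to 15.4 to 18.4 CPM in WT, 15.3 to 16.3 in KO, 31.5 to 45.0 in I/M and 105 to 123 in M/M libraries. Of its 10 tested genes, 9 were called higher in M/M and 8 in I/M against WT, and 8 of the 10 had passed the filter through the M/M libraries alone. The junction gene *Cdh5* rose by 5.31 in M/M and by 3.53 in I/M on the log2 scale, and *Pecam1* by 3.26 and 1.51. In I/M replicate 1, the library lowest for *Rgs5*, the endothelial sum was also the lowest of its group.

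Macrophage markers, 12 genes that were all under the filter, summed to 0.595 to 0.845 CPM in WT, 1.43 to 1.71 in I/M and 11.2 to 22.6 CPM in M/M libraries. The 8 markers of retinal astrocytes and Müller glia summed to 40.3 to 43.8 CPM in WT and 69.4 to 76.8 in M/M libraries, with *Glul* and *Apoe* called higher, at 1.55 and 1.91 on the log2 scale. Of the 4 tested genes of this list, only these 2 had a log2 fold change above 0. *Glul* went from 7.29 ± 0.351 to 21.3 ± 0.374 CPM and *Apoe* from 6.71 ± 1.30 to 25.2 ± 3.55 CPM (SD, n = 3). In each genotype, 4 of the 8 genes had a mean under 1 CPM. Skeletal muscle, as 16 genes, summed to 11.3 to 11.7 CPM in WT and 18.7 to 20.9 in M/M libraries, where *Tnni1* was called higher, at 1.75. Its defining genes were near 0 in every group: *Acta1* at 0.109 ± 0.0514 CPM in WT and 0.103 ± 0.104 in M/M, *Ckm* at 0.831 ± 0.0740 and 0.720 ± 0.113 (SD, n = 3), and *Myog* with 0 counts in WT and 5 in M/M libraries.

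Pigmented cell markers, 8 genes with *Rpe65* at 0 in every library, summed to 5.99 to 6.63 CPM in WT and 3.01 to 3.58 in M/M libraries. The 8 photoreceptor genes summed to 2.10 to 2.70 CPM in WT and 2.83 to 6.03 in M/M libraries, 7 corneal genes to 8.40 to 10.4 and 11.8 to 21.2, and 6 red blood cell genes to 1.22 to 12.04 and 12.4 to 15.01. One corneal and one red blood cell gene were tested, and neither was called. The part of vessels, immune cells or adhering eye tissue in the marker levels was not tested. By the study's account, this age was chosen because the fetal vessel net had mostly regressed by then and because older M/M lenses could not be freed cleanly of iris and retina.

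Of the lens's own markers, 2 of 10 epithelial and 1 of 13 fiber genes were called in M/M against WT, all of them lower. Lens epithelium, as 10 genes, summed to 741 to 796 CPM in WT and 652 to 670 in M/M libraries, with 2 of 10 called lower: *Foxe3*, a transcription factor gene of the epithelium, by 2.24 on the log2 scale, and *Slc38a3*, an amino acid transporter gene, by 1.69. *Foxe3* went from 90.8 ± 14.0 to 19.2 ± 1.81 CPM and *Slc38a3* from 55.4 ± 1.68 to 17.2 ± 0.739 CPM (SD, n = 3). Of the 10 genes, 4 had a log2 fold change above 0, and the median was −0.048. *Cdh1*, which encodes the epithelial E-cadherin, was at 58.6 ± 7.33 CPM in WT and 56.5 ± 3.87 in M/M libraries (SD, n = 3), and the libraries overlapped. The 13 lens fiber genes summed to 32217 to 34574 CPM in WT and 17369 to 19894 CPM in M/M libraries. All 13 had a log2 fold change below 0 in M/M against WT, with a median of −0.75 beside −0.0042 for all tested genes, and with *Bfsp1*, a beaded filament gene, called lower at −1.32. With library size only as scaling, *Bfsp1* was at −0.81 and no longer called.

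**Figure D4:**
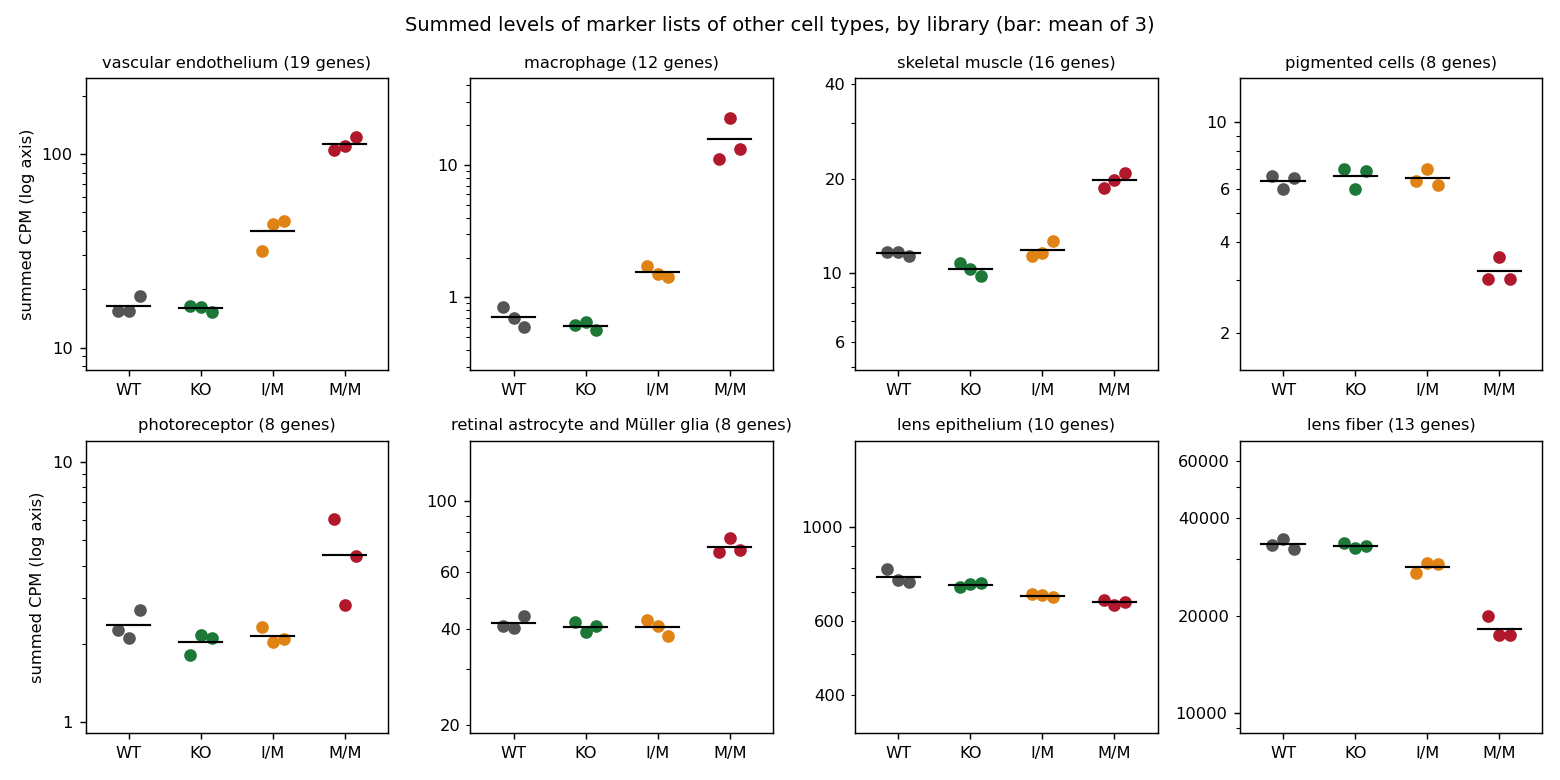
Summed CPM (log axis) of the marker genes of 8 other cell types in each library of the 4 genotypes, with bars at the mean of 3. Endothelial sums lie at 15.4 to 18.4 CPM in WT and at 105 to 123 CPM in M/M, macrophage sums at 0.595 to 0.845 and 11.2 to 22.6 CPM, and pigmented, lens epithelium and lens fiber sums are lower in M/M than in WT.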

How the data were processed

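The authors aligned and quantified reads with DRAGEN against the Ensembl mouse primary assembly (mm10) and deposited estimated counts per gene for 12 libraries, 88.4% of them whole, which were rounded here. Their separate table of comparisons (fold changes, p-values, counts, CPM) was not used. Samples were grouped by the labels. The filter, a CPM of 5 in 3 or more libraries, was applied without TMM factors and kept 8984 genes. These entered one edgeR 4.0.16 quasi-likelihood fit over 12 libraries (TMM, genotype only, R 4.3.3), with Benjamini–Hochberg adjustment over all genes tested. The test was planned for whole counts. Replicate libraries differed beyond sampling noise. Intervals of count ratios cover counting error only. Estimated counts of genes with near-identical copies are uncertain.

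The genes and the 14 marker lists (201 genes) were chosen with earlier results of these data known. Named were all 10 genes, up to 2 largest called rises and falls per list in M/M against WT, fixed defining markers, and the 3 nearest patterns per called gene. DESeq2 1.42.0, other scalings, filters and thresholds, a replicate block, glmTreat and left-out libraries were alternatives. Positions are from GENCODE vM21 and promoters from RefSeq (GRCm38.p6). The procedure was tested on simulated data. Python 3.11.15, pandas 2.3.3 and matplotlib 3.10.9 were used for annotation and figures. One gene of the smooth muscle list is not reported here.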

Additional observations from a re-analysis of the deposited data

Results flagged for a closer look

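The mutant genotypes were compared with each other in the same fit, and 5 of the 7 tested genes were called higher at 2-fold, beside 3.67% of all tested genes. The log2 fold changes of *Trpm3*-M/M against *Trpm3*-I/M were 5.01 for *Tagln*, 4.49 for *Meox2*, 4.40 for *Cspg4*, 2.38 for *Rgs5* and 1.23 for *Acta2*. For each of the 5, every M/M library lay above every I/M library. The share of all tested genes separated in this way is not given for this comparison. At any fold, 51.3% of all tested genes had an adjusted p of at most 0.05 there (edgeR quasi-likelihood test). *Cspg4*, *Tagln* and *Meox2* passed the filter through the M/M libraries alone and so had to differ.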

How the results depend on the processing

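The number of the 10 genes called was 6 in M/M against WT, 3 in I/M, 0 in KO and 5 in M/M against I/M. It was the same with library size only, TMM without crystallin genes, upper-quartile factors, DESeq2, only the 2 genotypes compared, and the replicate block (6, 3, 0 and 5). The replicate numbers do not pair the libraries: same-numbered libraries correlated between −0.26 and 0.15, over 0.1 in 2 of 18 pairs. Without a fold change threshold, 5 were called in I/M and 2 in KO. Leaving out 1 library gave 2 to 6 in M/M against WT, 1 to 3 in I/M and 2 to 5 in M/M against I/M. The lower counts came from leaving out M/M replicate 1 (3, 1 and 2), 2 (2, 1 and 2) or 3 (3, 1 and 2), which takes genes under the filter of 3 libraries. With the genes of the 12-library filter kept, chosen after seeing the data, the counts were 5 to 6, 3 and 5. With library size only, M/M against WT had 6 higher (*Pdgfrb* at 1.02) and *Pdgfra* at −0.52. *Pdgfra* also missed the call without M/M replicate 2 (−0.97; −0.995 with the genes kept) and under glmTreat, as did *Acta2* in M/M against I/M. *Rgs5* in KO against WT, −0.084, ran from −0.55 to 0.81 with 1 library left out and reversed without WT replicate 3 (0.81), KO replicate 1 (0.066) or KO replicate 3 (0.13), with adjusted p from 0.771 to 0.98 by edgeR; the cause was not tested. *Myh11*, *Des* and *Dcn* stayed under the CPM filter of the fit.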
